A study of Rattus norvegicus with 6 samples.

Results

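Gene expression in the control cultures of a small interfering RNA (siRNA) study of neonatal rat ventricular myocytes was described here on its own, as the starting state of these cells. The 3 si-scramble arrays among the 6 arrays of the series were used, and no value was set against the 3 arrays of cells that received si-uc.323. The cells were isolated from the ventricles of Sprague-Dawley rats aged 1 to 2 days, labelled male, with trypsin and collagenase. They were preplated for 1 h, a step that lowers the number of fibroblasts, and grown with 5-bromodeoxyuridine in the medium. After 36 h of culture, scrambled siRNA at 50 nmol/L was given with Lipofectamine RNAiMAX in serum-free medium for 3 h. Serum starvation then went on for 21 h, and total RNA was taken at 24 h, amplified and labelled with the dye Cy3. The 3 cultures therefore share a scrambled siRNA, a transfection reagent, serum withdrawal and a drug that blocks dividing cells, so they stand for cultured, starved and transfected neonatal cells and not for untouched heart tissue. The labels speak of independent experiments but do not tie a culture to a litter, so the spread given below is that between these 3 samples and may be partly technical.

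A gene was a member when its probe lay well above background on all 3 arrays, a call that the scanner software makes for each spot. Of 15161 rat genes that the array's RefSeq accessions name, 11263 met this rule, which is 74.3% of them. A further 808 genes passed on 1 or 2 arrays and 3090 on none. The level of a gene is the log2 signal of its brightest probe minus the 75th percentile of its array, so that a level of 0 is the signal at that percentile, which was an intensity of 1201, 1381 and 1182 on replicates 1, 2 and 3. Detected genes ran from −6.32 to 6.73 around a median of −1.71. A percentile below gives a gene's place among the detected genes, with 100 at the bright end. With 1 group there is nothing to test, and an exact two-sided sign test over 3 arrays could not go below p = 0.25, so levels and spreads are given as descriptions.

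The ventricular myocyte is a contractile cell built around the sarcomere, in which myosin thick filaments pull on actin thin filaments. Calcium released from the sarcoplasmic reticulum binds troponin on the thin filament and starts each contraction, and calcium pumps then end it. Around birth, rodent heart muscle replaces several fetal protein isoforms by adult ones, turns from glucose toward fatty acids as its fuel, and its myocytes stop dividing.

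The 5 genes taken as marks of these cells were among the brightest on every array. Tnnt2, which encodes cardiac troponin T, had levels of 6.33, 6.30 and 6.42 on replicates 1 to 3 and ranked 7 among all detected genes. Actc1, cardiac alpha-actin, stood at 5.93, 6.02 and 6.05 and ranked 17. Both lay at percentile 99.9, and their arrays differed by far less than the distance to a typical gene. Myh6, the alpha or adult-type cardiac myosin heavy chain, gave 4.95, 5.11 and 5.19 at percentile 99.1. Myh7, the beta chain of the fetal rodent ventricle, gave 4.34, 4.17 and 4.17 at percentile 97.9. Nppa, the precursor of atrial natriuretic peptide, gave 3.76, 3.73 and 3.80 at percentile 96.8. All 14 measured genes of a ventricular myocyte marker list were detected, with a median percentile of 97.3 and a lowest one of 66.9 for Actn2, so the markers of the labelled cell type were present.

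**Figure D1:**
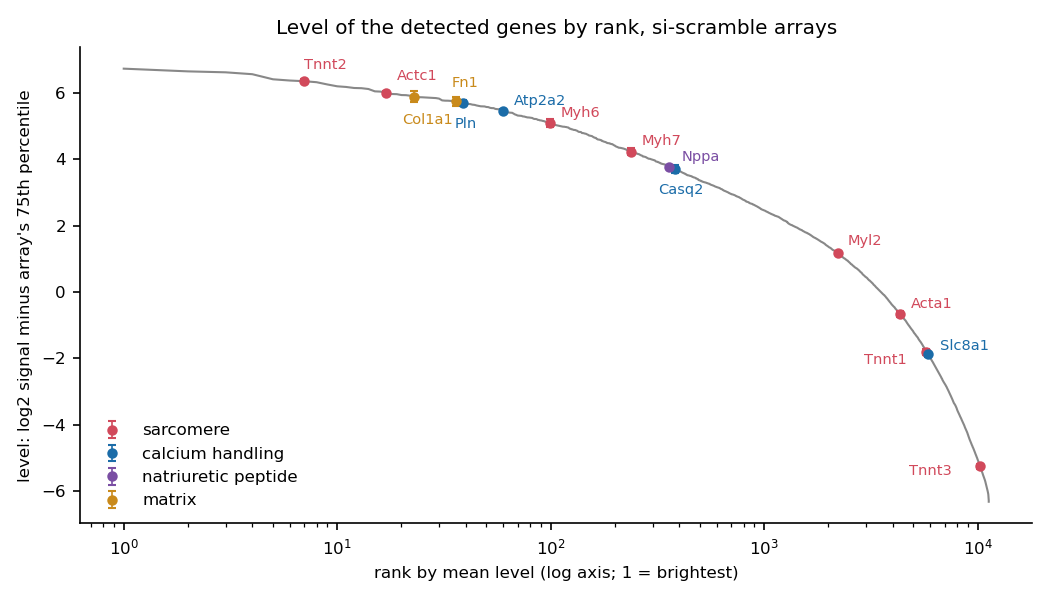
Level (log2 signal minus the array's 75th percentile, mean of 3 arrays with SD bars) of the 11263 detected genes against their rank on a log axis, with sarcomere, calcium handling, natriuretic peptide and matrix genes marked. Tnnt2 and Actc1 sit at ranks 7 and 17, while the skeletal troponin T genes Tnnt1 and Tnnt3 lie in the dimmer part of the curve.

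A signal difference between probes is not a ratio of transcripts, since probes differ in how well they bind and label. The size of this effect could be read from the 1812 genes with more than 1 detected probe. Probes of the same gene differed by a median of 2.45 on the log2 scale over 2166 pairs, and 75.9% of the pairs differed by more than 1. The 90th percentile of these gaps was 5.79. A difference between isoforms is therefore called beyond the probe gaps only when it passes 5.79 with the same sign on all 3 arrays, and smaller ones are given as signals only.

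The brightest genes encoded the protein synthesis machinery. By symbol, 16 of the 30 brightest genes and 50 of the 100 brightest were ribosomal proteins, led by Rpl41 at 6.73 ± 0.10 (SD, n = 3) and Rplp0 at 6.65 ± 0.12. Rplp2 and Rps12 followed at 6.62 and 6.56, then, among others, Rpl19, Rps27, Rpl23, Rpl37a, Rps23, Rps29, Rpl6, Rpl32, Rpl38, Rpl7 and Rpl13, between 6.37 and 5.83. Fau, the fusion of a ubiquitin-like protein with a small-subunit ribosomal protein, stood at 5.86. Sarcomere genes held places 7 and 17, with Tnnt2 and Actc1. The iron storage subunits Fth1 and Ftl1 had levels of 6.25 and 5.93, the growth-related protein Tpt1 6.32, and Myl6, the non-muscle and smooth muscle essential myosin light chain, 6.18. Matrix genes were present too, with Col1a1, the alpha-1 chain of type I collagen, at 5.89 and the proteoglycan Bgn at 5.85. Further places went to Ceacam9 at 6.41, the receptor gene Igf2r at 5.96, the mitochondrial helicase gene Twnk at 5.96 and Tmem50a at 5.93. Any pair of the 3 arrays shared 26 or 27 of its own 30 brightest genes and 93 or 94 of its 100 brightest.

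Thick filament genes were bright as a group. All 11 measured members were detected, at a median percentile of 89.4, and 9 of them were above the median of all genes. After Myh6 and Myh7 came Myl7, the atrial regulatory light chain, with 3.74, 3.71 and 3.78. On every array Myh7 was dimmer than Myh6, with log2 differences of −0.61, −0.94 and −1.02 and a mean of −0.85 ± 0.22 (SD, n = 3). This is well within the probe gaps, so both myosin heavy chains were bright and their order as transcripts cannot be read. The same holds for the light chains. Myl7 was brighter than the ventricular regulatory chain Myl2, whose levels were 1.11, 1.15 and 1.24, by 2.58 ± 0.05 (SD, n = 3). Myl4, the essential chain of atrium and fetal ventricle, was dimmer than the ventricular Myl3 with a signed difference of −0.98 ± 0.15. Cardiac myosin binding protein C (Mybpc3) had levels of 2.33, 2.04 and 2.26 against −4.92, −5.28 and −5.61 for the slow skeletal Mybpc1. That difference, 7.48 ± 0.35, lay beyond the probe gaps on every array. Against the non-muscle heavy chain Myh9, at −2.54, −2.37 and −2.40, Myh6 was brighter by 7.52 ± 0.06, also beyond the probe gaps. The difference of 3.80 to Myh10, another non-muscle chain, was not.

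Thin filament genes were brighter still, with all 11 measured members detected at a median percentile of 95.2. Tpm1, the main striated muscle tropomyosin, followed Tnnt2 and Actc1 with levels of 4.66, 4.49 and 4.43. Cardiac troponin T lay far above its skeletal relatives. The slow skeletal Tnnt1 had levels of −1.90, −1.78 and −1.74, a difference of −8.16 ± 0.08 to Tnnt2. The fast skeletal Tnnt3 had −5.30, −5.16 and −5.29, a difference of −11.60 ± 0.13. No array of either skeletal gene came near the cardiac one. The cardiac inhibitory subunit Tnni3, with 4.14, 4.28 and 4.13, exceeded the fast skeletal Tnni2 by 6.12 ± 0.05, which is beyond the probe gaps as well. Tnni1, the slow skeletal isoform that the fetal heart uses, was bright at 3.37, 3.20 and 3.25 and lay close to Tnni3, with a signed difference of −0.91 ± 0.16. Tnnc1, the calcium-binding subunit of heart and slow muscle, was 2.77 ± 0.18 above the fast Tnnc2, within the gaps.

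The alpha-actin isoforms were far apart or close, depending on the partner. Acta1, skeletal alpha-actin and a gene of the fetal and the stressed heart, had levels of −0.75, −0.55 and −0.67 and percentile 61.6. Its log2 difference to Actc1 was −6.66 ± 0.08, past the probe gaps on all 3 arrays. Acta2, the smooth muscle alpha-actin that newborn and cultured myocytes as well as myofibroblasts can express, was bright at 5.00, 4.78 and 4.86, with a signed difference to Actc1 of −1.12 ± 0.17. Of the cytoplasmic actins, Actg1 lay 0.27 ± 0.14 below Actc1 and Actb 3.66 ± 0.06 below it. A further Actg1 probe read only −0.14, so the closeness of Actg1 to Actc1 rests on its brightest probe. Tpm1 exceeded the non-muscle tropomyosins Tpm4 and Tpm3 by 3.75 and 4.11, within the gaps.

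Promoters of this contrasting pair of actins and of Nppa are shown because all 3 genes are known targets of serum response factor and because the actins differ in signal. The 150 bases before the annotated start are given 5′ to 3′ on the gene's strand, from RefSeq on the build GRCr8. Capitals mark the letters TATAA and a CArG box, the binding motif of serum response factor. Only its strict form was searched, CCWWWWWWGG with W for A or T. Looser forms, such as ctttaaaagg in Nppa and ccctatatgg in Actc1, are not marked. The windows are chr19:68784195-68784344 on the minus strand for Acta1, chr3:121271828-121271977 on the minus strand for Actc1 and chr5:163712034-163712183 on the plus strand for Nppa.
Acta1: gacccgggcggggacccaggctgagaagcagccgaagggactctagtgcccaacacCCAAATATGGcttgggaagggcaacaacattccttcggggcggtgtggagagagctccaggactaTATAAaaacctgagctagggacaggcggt
Actc1: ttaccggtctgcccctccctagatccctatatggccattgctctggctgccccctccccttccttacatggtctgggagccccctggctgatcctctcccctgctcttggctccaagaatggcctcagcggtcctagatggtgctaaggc
Nppa: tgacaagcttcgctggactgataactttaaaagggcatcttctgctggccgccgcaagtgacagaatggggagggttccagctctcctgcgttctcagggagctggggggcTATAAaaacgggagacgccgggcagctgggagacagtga

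In Acta1 the CArG box begins 94 bases and TATAA 29 bases before the start, in Nppa TATAA begins 39 bases before it, and in Actc1 neither set of letters is in the window. So the dimmer of the actins is the one whose window holds both strict sets of letters. Looser CArG forms were not searched systematically, and the Actc1 and Nppa windows hold those named above. The absence of a serum response factor site therefore cannot be read from these windows. Over the 27457 genes with a promoter window, 2.61% had TATAA lying wholly between 40 and 20 bases before the start on the gene's strand. Of the 9201 detected genes that could be matched, 2.64% had it. Among the brightest 5% of detected genes the share was 5.53% of the 470 matched, and among the cytosolic ribosomal proteins 4 of 40. A strict CArG box within 250 bases before the start, which reads the same way on both strands, was found in 1.62% of all windows. The share was 1.20% in detected genes, and 2 of 19 matched sarcomere genes had one, Acta1 and Myl3. The letters AGATAA, searched on both strands as a motif of the factor Gata4 and its relatives, were in 10.9% of all windows, in 6.76% of detected genes and in 3 of the 19. These counts are small and describe letters, not binding.

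Z-disc and costamere genes were more spread out. Of 15 measured, 14 were detected, at a median percentile of 75.7. Ankrd2, a stretch-responsive gene of skeletal muscle, was not well above background on any array. Cryab, a small heat shock protein that protects the Z-disc, led with 5.64, 5.56 and 5.63. Nexn and Ankrd1 followed at 3.31 and 3.13. Desmin (Des), the intermediate filament protein of muscle, and vimentin (Vim), that of mesenchymal cells, had nearly the same signal. Des stood at 2.35, 2.07 and 2.35 and Vim at 2.24, 2.10 and 2.24, and the sign of their difference changed between arrays. The sarcomeric alpha-actinin Actn2 lay 1.19 above the non-muscle Actn1 and had a signed difference of −1.48 to Actn4. For the filamins, the muscle form Flnc differed from Flna by −1.18.

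Calcium handling genes were all detected, 16 of 16, at a median percentile of 70.5. Pln, phospholamban, the inhibitor of the calcium pump, had levels of 5.79, 5.63 and 5.70. Atp2a2, the cardiac calcium pump SERCA2, had 5.45, 5.40 and 5.51 and was far brighter than its relatives. It exceeded the skeletal pump Atp2a1, at −2.77, −2.62 and −2.78, by 8.17 ± 0.14. The non-muscle pump Atp2a3 was not well above background on any array, and Atp2a2 exceeded the lowest well-above-background signal by at least 11.89 on the log2 scale. Both differences were beyond the probe gaps. A further Atp2a2 probe read only 2.77, and with it the difference to Atp2a1 is 5.49 and the call is lost. Casq2, cardiac calsequestrin, the calcium store protein, was at 3.70 ± 0.11 and exceeded the skeletal Casq1 by 1.60. Jph2, which holds the reticulum to the cell membrane, exceeded Jph1 by 2.84. The cardiac sodium-calcium exchanger Slc8a1 stood at −1.88, −1.94 and −1.80, at least 4.54 above Slc8a2, which was well above background on 1 of 3 arrays.

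Ion channel genes lay around the middle of the detected genes. Of 21 measured, 19 were detected, with a median percentile of 49.6, and the inward rectifier Kcnj2 and the pacemaker channel Hcn2 were not. Gja1, the gap junction protein connexin 43, led with 4.80, 4.83 and 4.81. Kcnq1, a slow repolarising potassium channel, was at 2.03. Kcna4, a potassium channel of the newborn rat ventricle, exceeded Kcnd2, which takes its place in the adult, by 2.89 ± 0.09. The T-type calcium channel Cacna1h exceeded the L-type channel Cacna1c by 0.42 ± 0.23. Neither difference passed the probe gaps.

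Oxidative metabolism was among the brightest groups. All 51 measured genes of oxidative phosphorylation were detected and were above the median of all genes, at a median percentile of 96.7, and 40 were in the brightest 10%. Cox6a1 led with 5.76, 5.64 and 5.76, followed by the ATP synthase gene Atp5f1a at 5.62 and Cox4i1 at 5.41. The heart form of cytochrome oxidase subunit 6A, Cox6a2, had almost the signal of the liver form Cox6a1, with a difference of −0.32 ± 0.09. Cox8b, the heart form of subunit 8, differed from Cox8a by −2.18 ± 0.08. TCA cycle genes, 20 of 20 detected, had a median percentile of 89.7, with Idh2 at 5.02, Suclg1 at 4.79 and Sdhc at 4.53.

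Fatty acid oxidation and glycolysis were both bright. For fatty acid oxidation, 30 of 30 genes were detected at a median percentile of 83.7, led by Acadl at 4.74, 4.49 and 4.61, Cpt1b at 4.59, 4.44 and 4.61, and Decr1 at 4.54, 4.30 and 4.48. Cpt1b is the muscle form of the enzyme that admits fatty acids to mitochondria, and the liver form Cpt1a, also the fetal heart's, lay at 0.42, 0.51 and 0.46. The difference of −4.08 ± 0.13 was within the probe gaps, and a further Cpt1b probe read −4.29, below Cpt1a. For glycolysis, 23 of 23 genes were detected at a median percentile of 87.9, led by Pgk1 at 5.18, Ldha at 5.09 and Ldhb at 4.57. Ldhb, the lactate dehydrogenase form of heart, thus lay below Ldha, the form of skeletal muscle, with a difference of −0.52 ± 0.10.

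Among the genes that take up and trap glucose, the hexokinases lay far apart. Hk1, the hexokinase of the fetal heart, had levels of 4.04, 4.12 and 4.08. Hk2, the insulin-responsive hexokinase of adult muscle, had −3.23, −3.26 and −3.24. The difference, 7.32 ± 0.06, lay beyond the probe gaps and was the only one of 16 fetal against adult pairs to do so with the fetal member brighter. The transporter Slc2a1 (GLUT1) exceeded Slc2a4 (GLUT4) by 1.28 ± 0.16. Gys1, muscle glycogen synthase, exceeded the liver form Gys2 by 6.59 ± 0.18, beyond the probe gaps, but Gys1 has a further probe at −5.13, with which the order turns. Of the other glycolytic pairs, the muscle phosphofructokinase Pfkm exceeded Pfkl by 3.50, while the muscle forms Pgam2, Eno3 and Pygm were below Pgam1, Eno1 and Pygb, with differences of −4.66, −0.95 and −1.01. The phosphorylase kinase subunit Phkg1 was not well above background on any array, and its difference to Phkg2 is known only to be −2.78 or further from 0.

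Energy buffering and its regulators gave mixed pairs. All 13 genes of creatine kinase and adenylate buffering were detected at a median percentile of 77.9, led by the adenylate kinase Ak1 at 4.36 and by the adenine nucleotide translocators Slc25a4 at 3.83 and Slc25a5 at 3.33. The muscle creatine kinase Ckm exceeded the brain form Ckb by 2.77 ± 0.03, and the sarcomeric mitochondrial Ckmt2 exceeded Ckmt1 by 3.20 ± 0.30. Slc25a4, the heart and muscle translocator, exceeded Slc25a5 by 0.50 ± 0.27. Among regulators of oxidative genes, the nuclear receptor Esrra had levels of 2.87, 2.86 and 2.85 and its relative Esrrg −4.56, −4.51 and −4.85, a difference for Esrrg of −7.50 ± 0.17 and beyond the probe gaps. Ppargc1a, the coactivator PGC-1 alpha, differed from Ppargc1b by −2.72, and Pdk4, a kinase that fasting raises and that shuts pyruvate out of the TCA cycle, from Pdk1 by −0.95. The heart fatty acid binding protein Fabp3 differed from Fabp5 by −2.45.

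**Figure D2:**
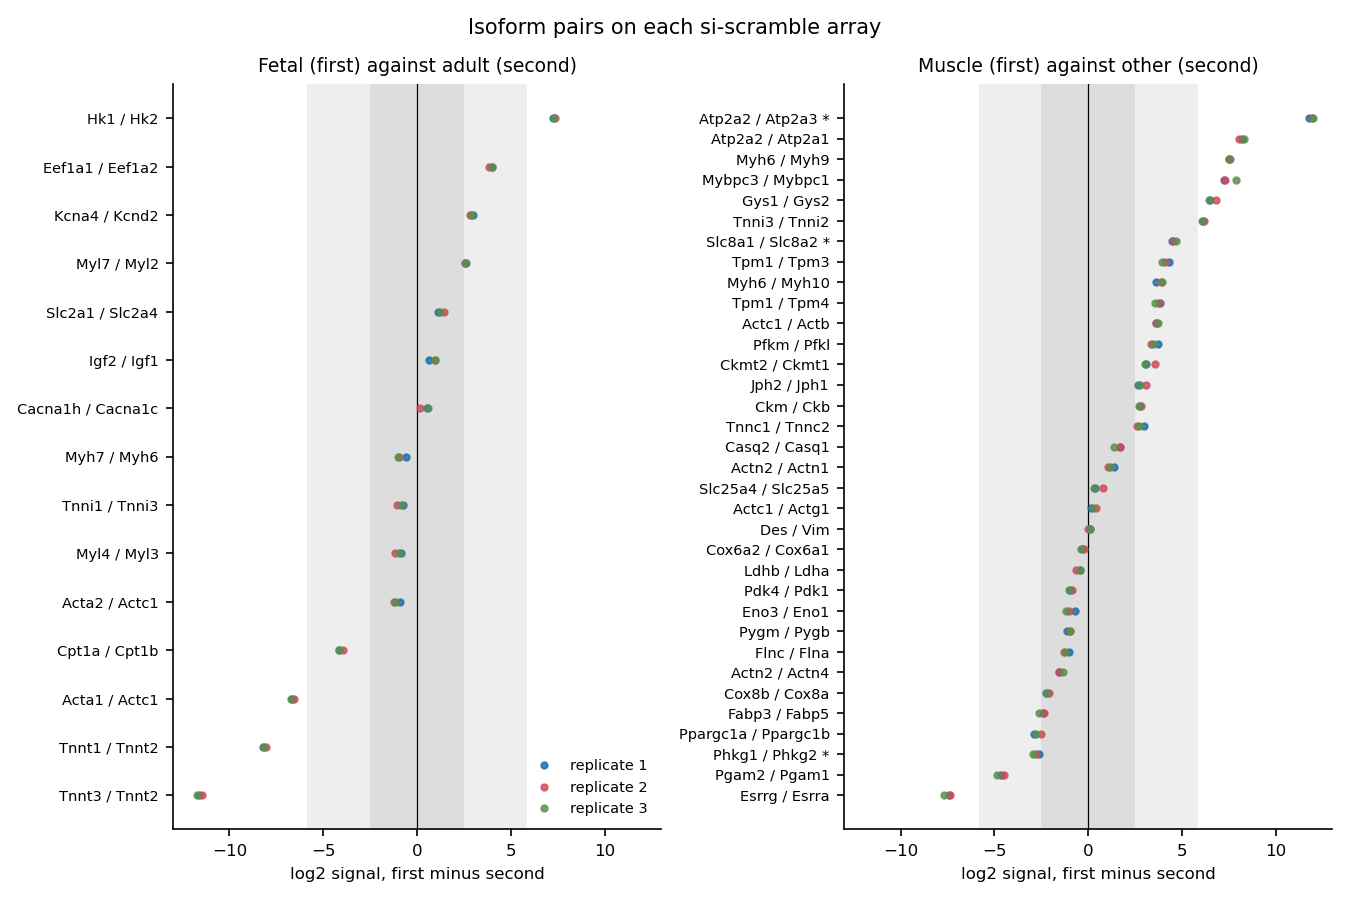
Difference in log2 signal between the members of 15 of the fetal against adult pairs (left) and 34 of the muscle against other pairs (right), 1 point per si-scramble array. The dark and light bands reach to the median (2.45) and the 90th percentile (5.79) of the gaps between probes of a single gene, and an asterisk marks a pair in which a member was not detected and the difference is a lower bound; 11 pairs lie outside the bands.

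Counted over the pairs, the fetal member was the brighter on all 3 arrays in 7 of 16 and the adult member in 9. Beyond the probe gaps lay 1 pair with the fetal member brighter (Hk1 and Hk2) and 3 with the adult member brighter. The latter were Acta1 and Actc1, Tnnt1 and Tnnt2, and Tnnt3 and Tnnt2. Both troponin T pairs share Tnnt2 and set a skeletal gene against the cardiac one, rather than a fetal form against an adult one. Among the other pairs counted for the fetal member were Eef1a1 over Eef1a2, elongation factors of which the latter belongs to adult muscle, by 3.94, and the fetal growth factor Igf2 over Igf1 by 0.86. In the muscle against other class, 35 of 42 listed pairs were measured. The muscle member was brighter on all 3 arrays in 20, the other member in 14, and the sign changed between arrays in 1, Des and Vim. Beyond the probe gaps the muscle member led in 6 and the other member in 1, Esrra over Esrrg, which are related nuclear receptors. Of the 6, Atp2a2 over Atp2a1, Mybpc3 over Mybpc1 and Tnni3 over Tnni2 set a cardiac gene against a skeletal one. The rest, Atp2a2 over Atp2a3, Myh6 over Myh9 and Gys1 over Gys2, set a muscle gene against a non-muscle or liver form. The calls for Gys1 over Gys2 and Atp2a2 over Atp2a1 are lost with a further probe. With that Atp2a2 probe the difference to Atp2a3 is 9.20, still beyond the gaps. A further Tnnt1 probe, at −4.25, is dimmer than the one used. In the remaining called pairs each member has only 1 probe matched to its gene, so the same check could not be made. Pairs that share a member, such as those of Atp2a2, Myh6 or Actc1, do not count as separate evidence. The cut is itself the 90th percentile of gaps between probes of 1 gene, so some such probes differ by more. Single calls, such as Hk1 over Hk2 or Esrra over Esrrg, cannot be told apart from probe differences. The arrays scattered far less than the probes, with a median SD of a pair's difference of 0.14 in the fetal and 0.15 in the muscle class.

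Genes of protein synthesis formed the brightest list. All 52 measured cytosolic ribosomal protein genes were detected, at a median percentile of 99.4, and 50 of them were in the brightest 10%. Elongation and initiation factors, 13 of 13 detected, had a median percentile of 98.2, with Eif4g2 at 5.31, Eef1a1 at 5.28 and Eef1g at 5.01. Heat shock and chaperone genes, 15 of 15, had a median of 92.8, with Cryab, the constitutive Hspa8 at 5.32 and the mitochondrial Hspe1 at 4.21. Proteasome core genes, 17 of 17, had a median of 82.3, led by Psma6, Psmb4 and Psma5 at 3.26, 3.25 and 2.10. Antioxidant genes, 18 of 18, had a median of 79.4, led by the superoxide dismutase Sod1 at 4.96, Gpx4 at 4.07 and Prdx2 at 3.46.

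Stress programmes were detected throughout, against 74.3% of all named genes, and their list medians lay above the median gene. The unfolded protein response list, 16 of 16 detected, had a median percentile of 74.0, with the reticulum chaperones Hspa5 at 4.04 ± 0.05 and Hyou1 at 4.01, 3.95 and 4.02, and the disulfide isomerase Pdia6 at 3.37. The integrated stress response list, 16 of 16, had a median of 73.5, with the transcription factor Cebpb at 4.39, 4.22 and 4.38, the serine synthesis enzyme Phgdh at 3.33 and Ddit3, the factor CHOP, at 3.22. The list of hypertrophy and stress genes, 15 of 15, had a median of 90.8, led by Myh7, the metallothionein Mt2A at 3.85 and Nppa. Immediate early genes were all detected, 21 of 21, at a median of 55.0, led by Junb at 3.83, 3.74 and 3.83, Jund at 2.45 and Dusp6 at 1.92. Only 11 of the 21 were above the median of all genes, and the lowest lay at percentile 11.0. With no untreated culture in the series, the part that culture, starvation or transfection has in these levels was not tested.

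Interferon and RNA sensing genes, 18 of 20 detected, had a median percentile of 61.9. Mx2, an interferon-induced GTPase, stood out from the rest of its list with 4.21, 4.02 and 4.13, while Irf1, a transcription factor of the same response, was at 2.24. Ifnb1 and Oasl were not well above background on any array. Chemokines and cytokines lay lower, with 19 of 20 detected at a median of 36.3. Ccl2, which attracts monocytes, had 2.32, 2.17 and 2.37, and Cx3cl1 and Cxcl12 had 1.47 and 0.82.

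Transcription factors of the heart were detected in 14 of 16 cases at a median percentile of 54.2, Hand1 and Isl1 being the exceptions. Srf, the serum response factor, had 2.77, 2.52 and 2.78. The ventricular factor Irx4 and the early cardiac factor Nkx2-5 followed at 1.34 and 1.30. Genes of mitosis and DNA replication were all detected, 25 of 25, at a median percentile of 50.0 that equals that of all detected genes. Rrm2, a ribonucleotide reductase subunit, led with 2.24, 2.06 and 2.21, followed by the helicase subunit Mcm4 at 1.69 and the mitotic kinase Cdk1 at 1.58. Genes linked to leaving the cell cycle, 18 of 18, had a median of 68.1, with the antiproliferative Btg1 at 4.88, the inhibitor Cdkn1a at 2.45 and Meis1 at 2.06. These are totals over all cells in the dish, and in such bulk RNA fewer cells of a type and less RNA per cell cannot be told apart.

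**Figure D3:**
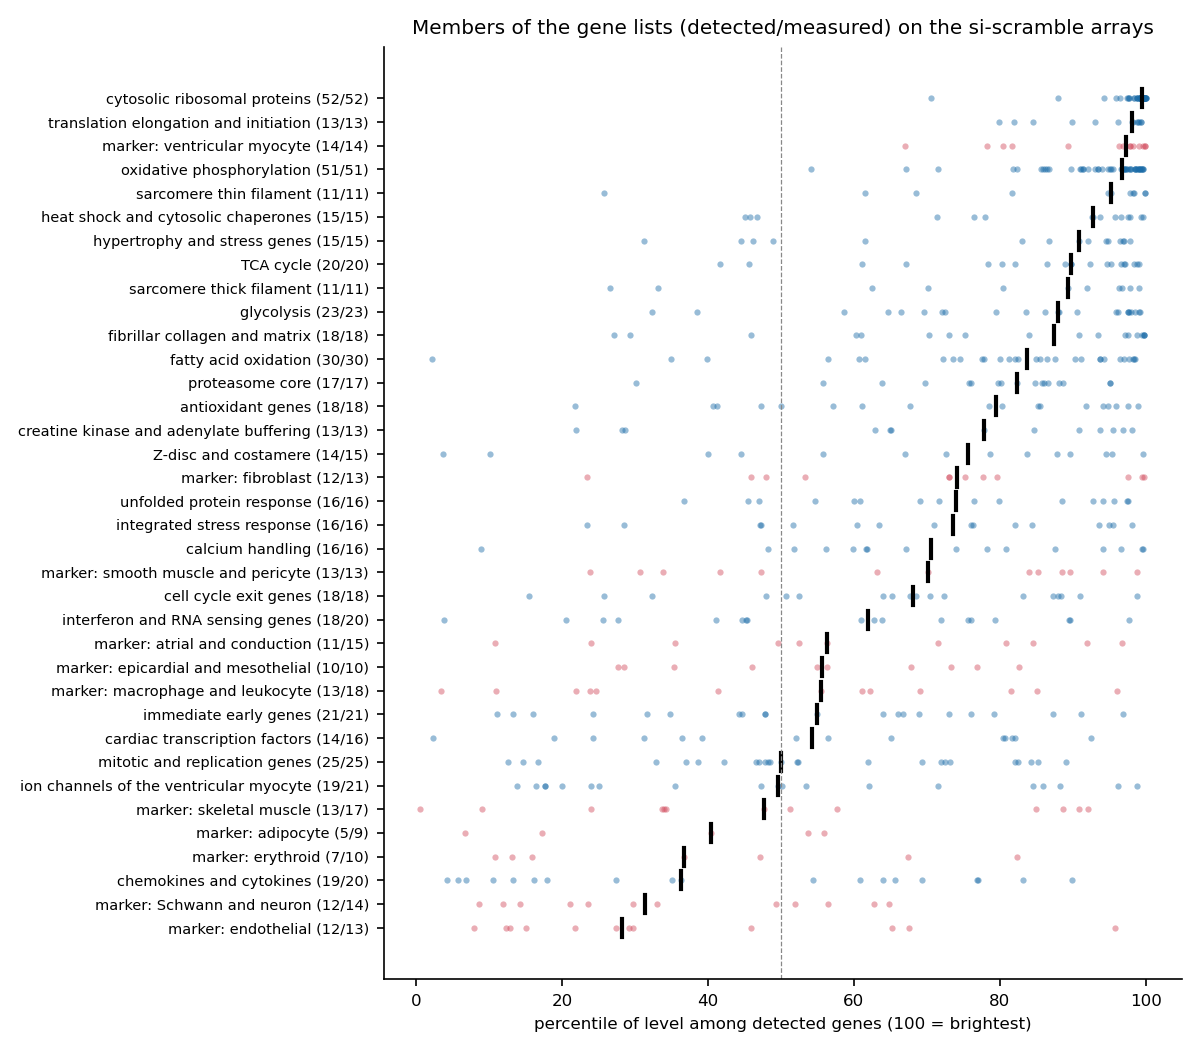
Percentile of each detected member (points) among the 11263 detected genes for functional lists (blue) and cell type marker lists (red), with the list median as a black bar and detected over measured counts in the labels. Cytosolic ribosomal proteins have the highest median, 99.4, and endothelial markers the lowest, 28.3.

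Markers of other cell types that a ventricular digest can hold were present at different levels. Matrix genes were bright, with 18 of 18 detected at a median percentile of 87.4, led by Col1a1, Bgn and Fn1, which encodes fibronectin, at 5.75, 5.59 and 5.87. Of 13 measured fibroblast markers, 12 were detected at a median of 74.1. Col1a1 had 6.07, 5.76 and 5.83, Col1a2 5.52, 5.52 and 5.47, and Col3a1 3.93, 4.14 and 4.07, all above percentile 97, while Thy1, a surface marker of many fibroblasts, was not well above background on all arrays. Smooth muscle and pericyte markers, 13 of 13, had a median of 70.2, and above percentile 90 lay Acta2 and Smtn, the latter at 3.01, 3.02 and 3.04. Endothelial markers had the lowest median, 28.3, with 12 of 13 detected and Tie1 the exception. Kdr, a receptor for vascular endothelial growth factor, was the single endothelial marker above percentile 90, with 3.51, 3.28 and 3.52.

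Blood, immune and atrial markers were detected about as often as named genes in general, of which 74.3% were. Among macrophage and leukocyte markers 13 of 18 passed, or 72.2%, at a median of 55.4, with Lyz2, the lysozyme of macrophages, at 3.56, 3.45 and 3.54. Among the 5 that were not were Itgam, Cd3e, S100a8 and S100a9, which mark myeloid cells, T cells and neutrophils. Erythroid markers were detected in 7 of 10 cases, or 70%, at a median of 36.8, with the globin gene Hba-a1 leading at 1.38. Of atrial and conduction markers 11 of 15, or 73.3%, were detected at a median of 56.3. The atrial light chains Myl7 and Myl4 were above percentile 90, at 3.74 and 2.60, whereas Kcna5, Shox2, Isl1 and Bmp10 were not well above background on all arrays. Since fetal ventricular muscle also uses both light chains, this list is not specific to atrial cells at this age.

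Skeletal muscle, nerve, epicardial and fat markers completed the survey. Skeletal muscle markers, 13 of 17, had a median percentile of 47.6, with Ckm at 2.44, 2.43 and 2.36 and the perinatal myosin Myh8 at 2.41, 3.24 and 2.25. The adult fast myosins Myh2 and Myh4 and the myogenic factors Myf6 and Pax7 were not detected. Epicardial and mesothelial markers, 10 of 10, had a median of 55.6, and Schwann cell and neuron markers, 12 of 14, one of 31.4. Adipocyte markers were detected in 5 of 9 cases at a median of 40.4, with Adipoq, Lep, Cidec and Ucp1 below the rule. What share of the bright collagen, Acta2 or Lyz2 signal came from cells other than myocytes was not tested.

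The arrays agreed closely. Across the detected genes, which are not independent replicates, levels correlated with r of 0.9958 between replicates 1 and 2, 0.9980 between 1 and 3 and 0.9967 between 2 and 3, and the median gene differed by 0.13, 0.09 and 0.11 on the log2 scale in these pairs. The median SD of a gene over the 3 arrays was 0.093, and 90% of genes had an SD under 0.22. The SD fell from a median of 0.162 in the dimmest decile of genes to between 0.079 and 0.084 in the 5 brightest deciles. The 1283 detected probes with 10 spots had a median SD of 0.071 and the others one of 0.107. No spot was saturated, and between 71.8% and 73.8% of probes on an array were well above background. Leaving out replicate 2 lowered the median SD to 0.061.

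A range over the 3 arrays of more than 2-fold was found for 131 genes, or 1.16% of those detected. Of these, 30 were brighter than the median gene and 1 had a probe with 10 spots, as 9.19% of all detected genes do. The 131 genes were unevenly shared among the arrays, with 99 highest on replicate 2, 19 on replicate 1 and 13 on replicate 3, whereas 33% of all detected genes were highest on replicate 2. Of all detected genes, 44.1% were lowest on replicate 2, 33.2% on replicate 1 and 22.8% on replicate 3. With replicate 2 left out 29 genes spanned more than 2-fold and with replicate 1 left out 77, though a range over fewer arrays is narrower by construction. When arrays were scaled by their median in place of the 75th percentile, 75 of 112 such genes were highest on replicate 2, against 19.2% of all detected genes.

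**Figure D4:**
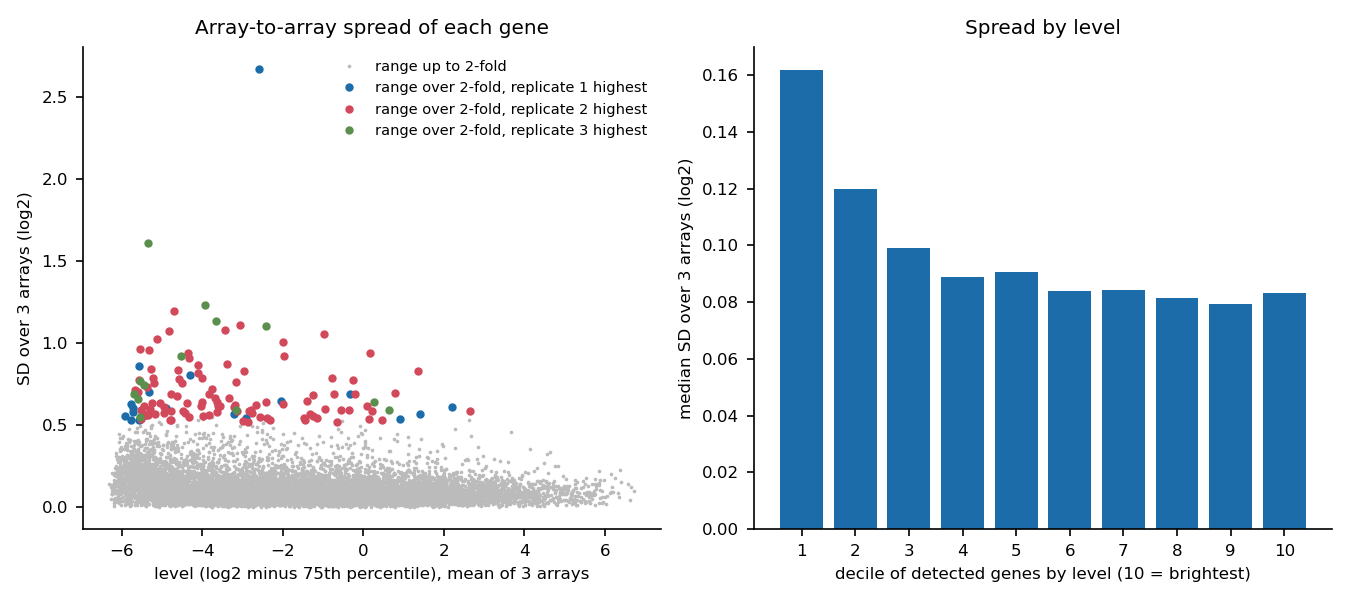
Left, SD over the 3 si-scramble arrays against mean level for each detected gene, with the 131 genes that span more than 2-fold coloured by the array on which they were highest. Right, median SD in deciles of the detected genes by level; spread is largest in the dimmest decile, at 0.162, and replicate 2 holds the highest value of most wide-ranging genes.

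Among genes brighter than the median, the 10 with the largest SD lay between percentiles 55.1 and 82.2. Ext1, which elongates heparan sulfate chains, had levels of −2.12, −0.03 and −0.82, a 4.25-fold range. The inositol transporter Slc5a3 had 0.30, 1.03 and −0.84, and Igfbp7, a secreted protein of vessels and stroma, 1.23, 2.24 and 0.59. In all of these replicate 2 was the highest. Il33, an alarmin cytokine of stromal and endothelial cells, had 0.16, 1.53 and 0.69, and Cx3cr1, a receptor of macrophages, −1.37, 0.00 and −0.84. Pinx1, Supt16h and Rpap3 were also highest on replicate 2, at 0.13, 0.38 and 0.55, as was Nsmce2 at −0.65. Taf15, an RNA-binding protein, was the exception, with 0.25, −1.09 and −0.12 and its lowest value on replicate 2.

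Some marker lists shared this leaning toward replicate 2. Relative to all genes, detected endothelial markers deviated from their own means by a median of −0.15, 0.14 and −0.06 on replicates 1, 2 and 3, and 8 of 12 were highest on replicate 2. Macrophage and leukocyte markers deviated by −0.06, 0.10 and −0.01 with 8 of 13 highest there, and epicardial and mesothelial markers by −0.09, 0.10 and −0.02 with 7 of 10. Ventricular myocyte markers gave −0.05, 0.02 and 0.01. Erythroid markers leaned the other way, at −0.09 on replicate 2 with 1 of 7 highest there. Atrial and conduction markers did too, at −0.05 with 2 of 11. By median percentile, endothelial markers gave 27.3, 27.9 and 28.0 and macrophage and leukocyte markers 55.2, 55.3 and 55.7, neither highest on replicate 2. Epicardial and mesothelial markers gave 55.1, 58.2 and 53.4. Over all markers of other cell types, 51 of 108 detected genes were highest on replicate 2, against 33% of all detected genes. With arrays scaled by their median, the endothelial, leukocyte and epicardial counts were 6 of 12, 6 of 13 and 5 of 10, against 19.2% of all detected genes under that scaling. These 3 lists were singled out of 11 after their values were seen, and the part that other cell types have in the spread between arrays was not tested. Leaving out replicate 2 moved no list's median percentile by more than 1.44.

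**Figure D5:**
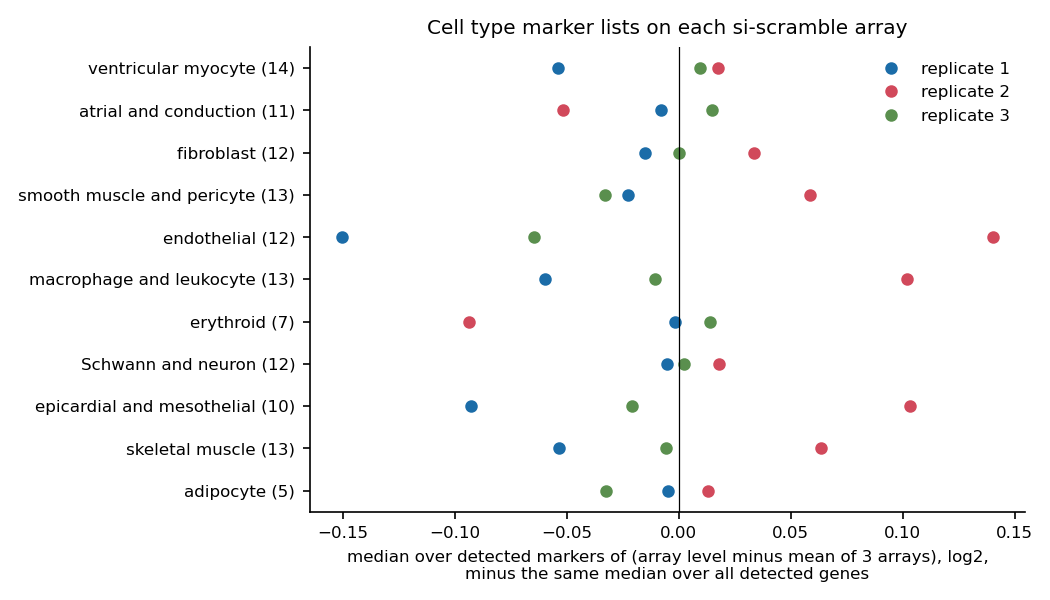
Median deviation of the detected markers of each cell type list (number detected in parentheses) from their 3-array means, relative to the same median over all detected genes, for each si-scramble array in log2 units. Endothelial markers spread most, from −0.15 on replicate 1 to 0.14 on replicate 2, while ventricular myocyte markers stay between −0.05 and 0.02.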

How the data were processed

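Total RNA of the 3 si-scramble cultures was hybridised singly to 1-colour Agilent arrays of design 028282, annotated on rn4, per the file headers. The deposited scanner files hold 1 intensity per spot, from which the authors' scanner software (Agilent Feature Extraction, version 11.0.1.1 in the submitters' processing notes) had subtracted background and a spatial trend. The authors' deposited value table holds log2 values with a median of 6.51 in each of these 3 columns, so its arrays share a centre, and it correlated with the scanner values at r of at least 0.9989. It served as an alternative.

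Here control spots and outlier-flagged spots (550 to 594 of 42877 per array) were left out, spots of a probe averaged as log2, and each array's 75th percentile subtracted (Python 3.11.15, pandas 2.3.3). A probe counted as well above background where at least 50% of its spots were. SystematicName accessions were matched to RefSeq (18005 of 30367 probes to 1 gene), and the brightest probe stood for a gene. The 3 arrays share a scan identifier, so no batch could be compared. The calculations were checked on simulated data.

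Named genes are the 30 brightest, the 5 markers, members of measured isoform pairs, the 3 brightest of each list, the 10 most variable above the median level, other-cell markers above percentile 90, and listed genes not detected; Actn2, the lowest myocyte marker, is also a pair member. Some genes that this rule names are not reported here. Members and lists were chosen with earlier results of these data known. Alternatives were median and quantile scaling, normexp background correction with limma 3.58.1 (offset 50), the authors' values, other background filters, other probe rules, flagged spots kept and each array left out. The number of arrays limits the precision.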

Additional observations from a re-analysis of the deposited data

Results flagged for a closer look

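Probes whose accession matched no single RefSeq gene were left out of every count of genes above. The shares of probes well above background and the SDs of probes by number of spots do include them. Of the unmatched probes, 7956 were well above background on all 3 arrays, with spots brighter than any negative control spot. The highest negative control intensities were 6.83, 13.8 and 5.46 on replicates 1 to 3. Unmatched probes make up 16 of the 30 brightest probes, and 4 were brighter than Rpl41, the brightest named gene. The brightest, A_64_P115964, had levels of 7.01, 6.97 and 7.09. The ranks given for named genes are therefore ranks among named genes only.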

How the results depend on the processing

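No paired analysis was possible because the description uses a single group. The count of detected genes, the fetal pair count (7 or 8 of 16) and the muscle pair count (19 to 21 of 35) stayed within 1.5 times of the value given under all 12 alternatives. Of the 30 brightest genes 18 remained with the mean over detected probes and 16 with the dimmest detected probe, against 28 to 30 with an array left out. The dimmest probe also turned the difference of Gys1 and Gys2 to −1.28 and lowered that of Atp2a2 and Atp2a1 to 5.49, within the probe gaps. The difference of Cpt1a and Cpt1b, which was within the gaps, changed sign with the mean over probes, to 0.34, and with the dimmest probe, to 4.76. The number of genes spanning more than 2-fold was 34 after normexp correction, 410 when 1 array sufficed for detection, 1352 with no filter, and 29 to 89 with an array left out. The median SD was 0.112 with median scaling, 0.113 with no filter, and 0.061 to 0.093 with an array left out. Fewer or more genes are counted under the filters by construction, and the cause of the other changes was not tested. Of the single isoform differences over all alternatives, 548 moved by less than the SD of the arrays, and the others by more or, as named above, to the other sign. List medians moved by less than the spread of the arrays in 258 cases and by more in 174, the most in smooth muscle markers, to 49.3 with the dimmest probe. Low signal limits the dimmest decile of genes.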

Other observations

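Some bright genes rest on probes that disagree. Twnk, among the 30 brightest, has probes of the same accession at 5.96 and −4.13. Rapgef6, Rpl36a and Rpl28, chosen after their values were seen, have probes of the same accession that differ by 10.4, 10.0 and 9.89 on the log2 scale. Ceacam9, known mainly from placenta, Igf2r and Tmem50a rank 5, 18 and 20 on a single probe each. In the RefSeq annotation, Twnk shares its locus with Mrpl43, and Igf2r overlaps other annotated loci. Bgn has a further probe at −1.91, Col1a1 one at 2.49 and Fn1 one at −0.41.

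The widest gene, also chosen after its values were seen, was Fads6, with levels of −0.51, −5.60 and −1.66 on replicates 1 to 3. Of the 131 genes that spanned more than 2-fold, 3 are markers of other cell types: Tcf21 of fibroblasts (−1.90, −0.67 and −1.63), Cldn5 of endothelium (−5.54, −4.39 and −4.94) and Lipe of adipocytes (−5.93, −5.80 and −4.58).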
